A study of Mus musculus with 21 samples.

Results

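The Srsf7 gene encodes SRSF7, an SR protein with an RNA-recognition motif, a zinc knuckle and a serine/arginine-rich domain. Its own transcript was examined here as a bound RNA. It was taken as the listed positions on the minus strand of chromosome 17 between 80586414 and 80606648 of mouse build mm9. These bounds are the ends of 1 locus when listed positions are joined at gaps of up to 10000 nt. The locus held 2658 distinct positions, of 1201134 listed in the whole series, and it is 1 of 34919 loci joined in the same way.

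Genes of SR proteins are known to control their own output. Many carry a highly conserved alternative exon with a premature stop codon, often called a poison exon, and inclusion of that exon or retention of the introns beside it makes an RNA that is degraded or held in the nucleus. High levels of the SR protein favour that form, so binding of the protein to its own transcript is part of a feedback loop. SRSF3, a smaller member of the same family without a zinc knuckle, takes part in such loops for its own gene and for others.

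Fractionation iCLIP was run on P19, a line of mouse embryonal carcinoma cells. After irradiation at 254 nm (100 mJ/cm2) the cells were separated into chromatin, nucleoplasm and cytoplasm, and the linked RNA was recovered with the tagged protein. A cDNA ends next to the linked nucleotide and so marks a bound position. The 6 groups are SRSF7-GFP in chromatin, nucleoplasm and cytoplasm (3 replicates each) and SRSF3-GFP in the same fractions (4 replicates each). All cells carried a GFP fusion, and no group without a tagged protein was analysed here. The labels give neither the way in which the fusion genes were introduced nor whether each line is 1 clone. Where their sequences are the same, cDNAs of a tagged Srsf7 gene and of the cell's own gene give the same positions. Only the SRSF7-GFP cells express the tagged SRSF7. Preference of SRSF7 for this RNA and additional copies of the gene therefore cannot be told apart in a comparison between the proteins. The part of a tagged copy in the SRSF7 profile along the gene was not tested.

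Replicates were pooled before deposit, which left a single list for each of the 6 groups, so each value below is a single pooled value with no replicate check. Listed totals were 248498, 275018 and 367298 cDNAs for SRSF7 in chromatin, nucleoplasm and cytoplasm, and 1768665, 315510 and 257089 for SRSF3. Mitochondrial RNA took between 0.322% and 8.89% of these totals in SRSF7 and between 0.196% and 16.7% in SRSF3. Intervals are exact 95% intervals (Clopper-Pearson for shares, conditional binomial for ratios of shares) and cover counting error only. A position enters a list only above the authors' threshold, so a stretch without listed positions is not shown to be unbound. A ratio was called higher or lower when its whole interval lay beyond 2-fold.

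SRSF7 was listed densely on its own transcript in all 3 fractions, and SRSF3 more sparsely. SRSF7 had 7222 chromatin cDNAs at 1711 positions, 14384 nucleoplasm cDNAs at 2157 positions and 8257 cytoplasm cDNAs at 1811 positions. SRSF3 had 1517 cDNAs at 588 positions in chromatin, 168 at 109 in nucleoplasm and 13 at 8 in cytoplasm. By number of cDNAs the locus ranked 3rd, 2nd and 4th among the 9107, 11351 and 12499 loci of the SRSF7 lists. In the SRSF3 lists it ranked 180th, 195th and 1335th among 18230, 10609 and 8267 loci. The plus strand of the same interval held 5, 15 and 13 cDNAs in the SRSF7 lists and none in the SRSF3 lists.

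As shares of the listed cDNAs, the chromatin, nucleoplasm and cytoplasm values of SRSF7 were 2.91% (2.84 to 2.97), 5.23% (5.15 to 5.31) and 2.25% (2.20 to 2.30). The SRSF3 shares were 0.0858% (0.0815 to 0.0902), 0.0532% (0.0455 to 0.0619) and 0.00506% (0.00269 to 0.00865). Every SRSF7 share lay above every SRSF3 share. SRSF7 over SRSF3 was 33.9-fold (32.1 to 35.8) for chromatin, 98.2-fold (84.4 to 115) for nucleoplasm and 445-fold (260 to 835) for cytoplasm. This was the top ratio among 1093 loci compared in nucleoplasm and among 866 in cytoplasm, and the 14th of 1358 in chromatin. Loci with fewer than 10 cDNAs in either list were not ranked, so a larger excess can lie outside the ranking. The neighbour at 80637679 to 80689490, described below, was unranked in nucleoplasm and cytoplasm for this reason. In nucleoplasm it had 2600 SRSF7 and 5 SRSF3 cDNAs, a log2 ratio of 9.22 against 6.62 for Srsf7. In cytoplasm it had 600 and 0. Of all loci compared, 17.2% were called higher in SRSF7 and 21.4% lower for chromatin. The shares called higher and lower were 18.3% and 12.7% for nucleoplasm, and 20.7% and 14.0% for cytoplasm. The cytoplasmic ratio rests on the 13 SRSF3 cDNAs. With listed positions counted in place of cDNAs, the ratio was 16.6-fold for nucleoplasm and 93.3-fold for cytoplasm; with positions of at least 3 cDNAs only, it was 372-fold and 1081-fold.

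**Figure D1:**
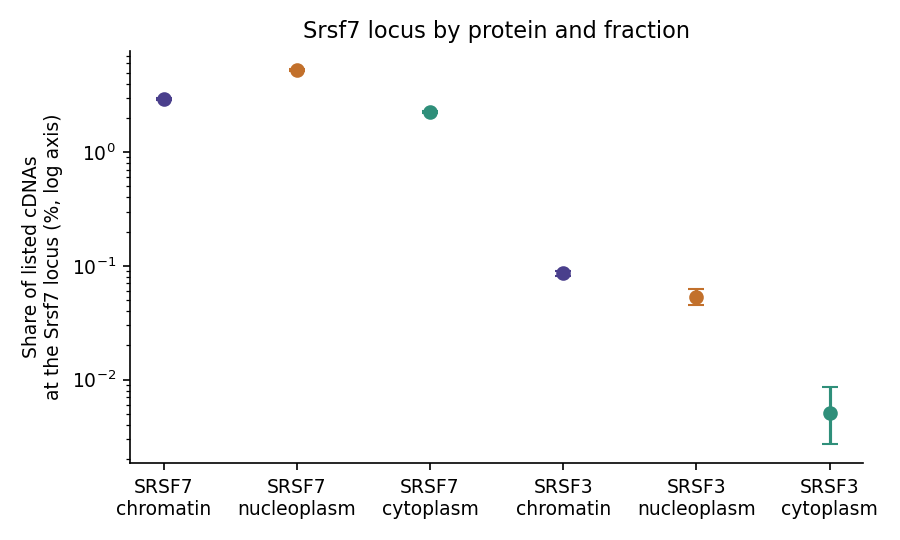
Share of each list's cDNAs that fell on the Srsf7 locus, in percent on a log axis, for SRSF7 and SRSF3 in 3 fractions. Points are single pooled values and bars are exact 95% intervals for counting error; the SRSF7 points lie between 2.25% and 5.23% and the SRSF3 points between 0.00506% and 0.0858%.

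The order of the fractions differed between the proteins. Within SRSF7 the share in nucleoplasm was 2.33-fold that in cytoplasm (2.26 to 2.39), a call that 22.6% of 1248 loci also received, with 16.6% called lower. It was 1.30-fold with listed positions counted in place of cDNAs, and 1.83-fold without mitochondrial RNA and the 10 highest other loci, so the call was lost in both. Chromatin over nucleoplasm was 0.556 (0.540 to 0.572) and chromatin over cytoplasm 1.29 (1.25 to 1.33), both within 2-fold. With positions of at least 3 cDNAs only, chromatin over nucleoplasm was 0.362 and was called lower. Of all loci, 14.2% were called higher and 21.5% lower for chromatin over nucleoplasm, and 22.3% and 16.8% for chromatin over cytoplasm. For chromatin over nucleoplasm Srsf7 had a log2 ratio of -0.85, against -0.73 for the median locus. Within SRSF3 the shares ran down from chromatin to cytoplasm. Chromatin over cytoplasm was 16.96-fold (9.89 to 31.9) and nucleoplasm over cytoplasm 10.5-fold (5.99 to 20.2). Those calls were received by 20.8% of 1050 and 16.8% of 921 loci, with 38.0% and 8.36% called lower. Chromatin over nucleoplasm was 1.61 (1.37 to 1.90), within 2-fold (log2 2.14 and called with positions of at least 3 cDNAs), where 17.2% of 1778 loci were called higher and 31.6% lower. With listed positions counted in place of cDNAs, chromatin over nucleoplasm turned round in both proteins, to a log2 ratio of 0.44 in SRSF7 and -0.56 in SRSF3.

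Positions on this RNA were taller than elsewhere in the SRSF7 lists. A listed position of the locus held a mean of 4.22, 6.67 and 4.56 cDNAs in the chromatin, nucleoplasm and cytoplasm lists, against 3.26, 2.10 and 2.58 over the whole lists. For SRSF3 the locus means were 2.58, 1.54 and 1.625, against 2.03, 2.88 and 4.38. Positions with a single cDNA made up 23.8% of the SRSF7 nucleoplasmic positions of the locus, against 71.8% of the whole list.

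The positions did not spread evenly. Distances below are in nt from the 5′-most listed position, 80606648, and run 5′ to 3′ along the RNA. The 22 clusters, joined over all 6 lists at gaps of up to 30 nt, began at that position. Nearly all cDNAs lay in a dense stretch of 7461 nt, with 99.9% of those of SRSF7 chromatin. The Srsf7 gene is 7290 nt long in RefSeq, on another build (GRCm38.p6). For mm9, neither an exon map nor a genome was used here, so exons, introns and UTRs are not assigned, and no bound sequence is printed.

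A leading cluster of 1116 nt, at 1870 to 2985 nt (chromosome 17, 80603663 to 80604778), held most of the cDNAs of both proteins. It had 4854 cDNAs in SRSF7 chromatin, 9403 in SRSF7 nucleoplasm and 5817 in SRSF7 cytoplasm, and 1106, 134 and 9 in the corresponding SRSF3 lists. That was 67.2% (66.1 to 68.3), 65.4% (64.6 to 66.1) and 70.4% (69.5 to 71.4) of the locus cDNAs of SRSF7. The SRSF3 values were 72.9% (70.6 to 75.1), 79.8% (72.9 to 85.6) and 69.2% (38.6 to 90.9). The cluster thus led in every list, and its share moved little between fractions. In SRSF7 nucleoplasm 1007 of its 1116 nucleotides were listed, or 90.2%, against 431 or 38.6% in SRSF3 chromatin.

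A second cluster of 180 nt followed at 3076 to 3255 nt, after 90 nt with no listed position in any of the 6 lists. It held 653, 1365 and 590 cDNAs in SRSF7 chromatin, nucleoplasm and cytoplasm, or 9.04%, 9.49% and 7.15% of the locus. SRSF3 had 181, 20 and 4 cDNAs there. In chromatin the second cluster took less of the locus in SRSF7 than in SRSF3, with a ratio of 0.758 (0.642 to 0.898).

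**Figure D2:**
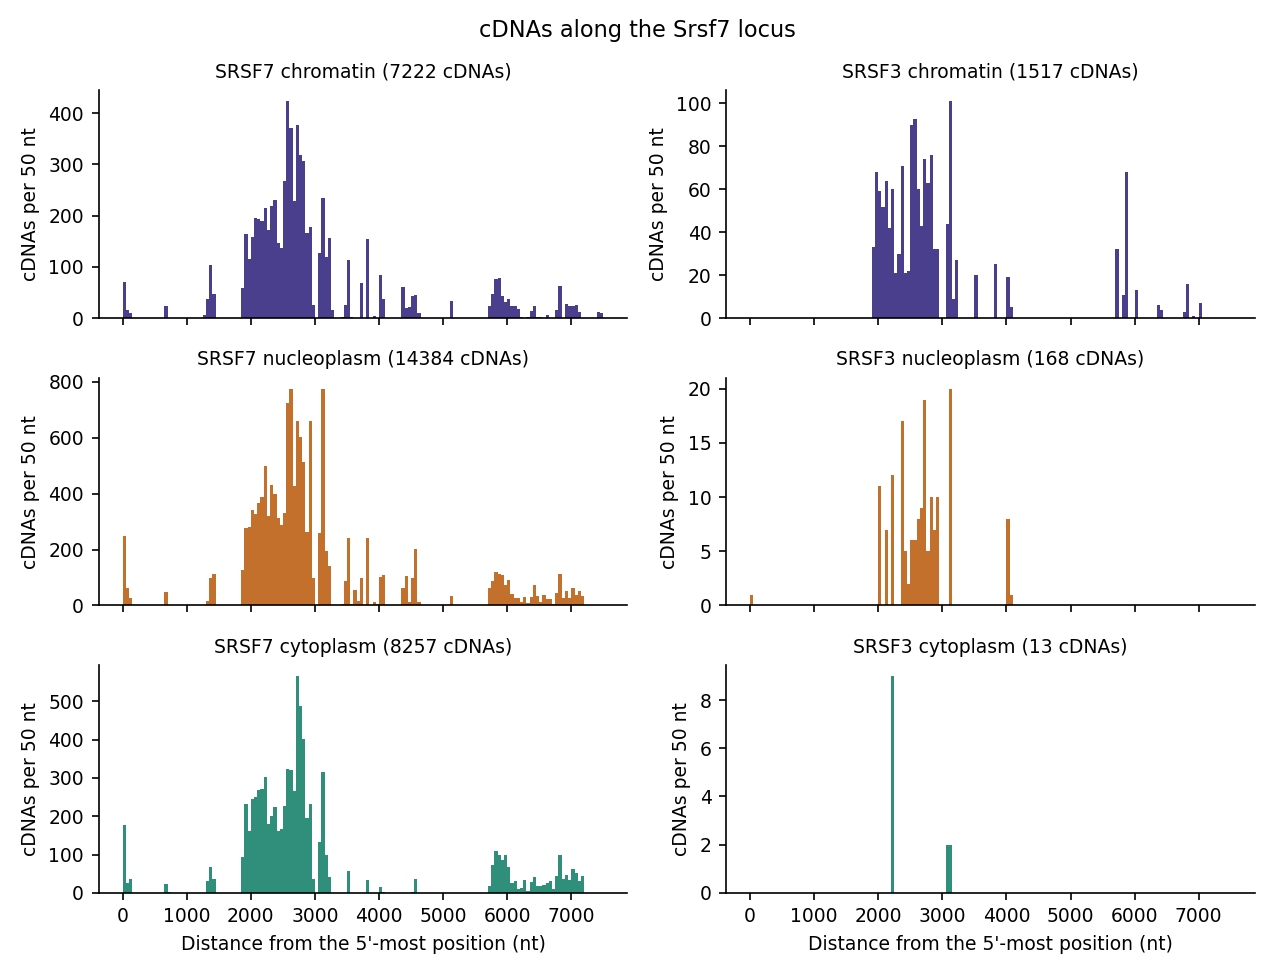
cDNAs per 50 nt along the Srsf7 locus for SRSF7 (left) and SRSF3 (right) in chromatin, nucleoplasm and cytoplasm, against the distance from the 5′-most listed position in nt. The vertical axes differ between panels; the stretch from 1870 to 2985 nt holds most cDNAs in each panel, and the stretch from 3406 to 5139 nt is low in SRSF7 cytoplasm.

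Farther 3′ the fractions of SRSF7 parted. Between 3406 and 5139 nt lay 11 small clusters, a stretch delimited after the values were seen. Together they held 728, 1506 and 146 SRSF7 cDNAs in chromatin, nucleoplasm and cytoplasm. That was 10.1% (9.40 to 10.8), 10.5% (9.97 to 10.98) and 1.77% (1.49 to 2.08) of the locus. Chromatin and nucleoplasm did not differ beyond counting error, with a ratio of 0.963 (0.880 to 1.05). Chromatin over cytoplasm was 5.70-fold (4.77 to 6.86) and nucleoplasm over cytoplasm 5.92-fold (4.99 to 7.07). Of the 11 clusters 10 were listed in chromatin, 10 in nucleoplasm and 4 in cytoplasm.

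These ratios compare parts of the same RNA within a list. Shares within the locus add up to 100%, so a lower share of 1 stretch raises the others.

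Single clusters of this stretch differed in the same direction. At 4033 to 4075 nt SRSF7 had 121, 210 and 16 cDNAs in the 3 fractions, a chromatin share 8.65-fold the cytoplasmic share (5.11 to 15.6). At 3808 to 3843 nt the cDNAs numbered 155, 241 and 34, with a ratio of 5.21 (3.58 to 7.79). The cluster at 4360 to 4427 nt held 81 and 168 cDNAs in chromatin and nucleoplasm and was not listed in cytoplasm. Of 10 clusters of the locus with enough cDNAs, 4 were called higher in chromatin than in cytoplasm, and the same 4 higher in nucleoplasm than in cytoplasm. All 4 lay between 3464 and 4613 nt. In other loci, 8.99% of 267 clusters were called higher in chromatin and 2.89% of 450 higher in nucleoplasm by the same comparison within their own locus, while 5.24% and 5.78% were called lower. No cluster of the 13 with at least 10 cDNAs in both chromatin and nucleoplasm was called, where 7.54% of 398 clusters of other loci were higher and 6.53% lower. That minimum leaves out clusters listed in 1 of the fractions, such as 3631 to 3657 nt with 69 cDNAs in nucleoplasm and none listed in chromatin, and 7434 to 7460 nt with 21 in chromatin and none listed in nucleoplasm. With positions counted in place of cDNAs, none of the 7 clusters then compared was called in either comparison with cytoplasm, and clusters joined at 10 nt gave 2 of 12 for chromatin against cytoplasm.

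The last large cluster, of 1490 nt at 5706 to 7195 nt (80599453 to 80600942), went the other way. It held 646, 1479 and 1307 cDNAs in SRSF7 chromatin, nucleoplasm and cytoplasm, or 8.94% (8.30 to 9.63), 10.3% (9.79 to 10.8) and 15.8% (15.05 to 16.6) of the locus. The chromatin share was 0.565 of the cytoplasmic share (0.513 to 0.621) and the nucleoplasmic share 0.650 (0.603 to 0.70), both short of the 2-fold call. The cluster at the very 5′ end, at 0 to 119 nt, had 96, 338 and 238 cDNAs, and there the chromatin share was 0.461 of the cytoplasmic share (0.360 to 0.587). The first and the last large cluster thus took a larger part of the cytoplasmic cDNAs than of the chromatin cDNAs, while the cluster at 1289 to 1424 nt did not, with a chromatin share 1.67-fold the cytoplasmic share (1.33 to 2.10).

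**Figure D3:**
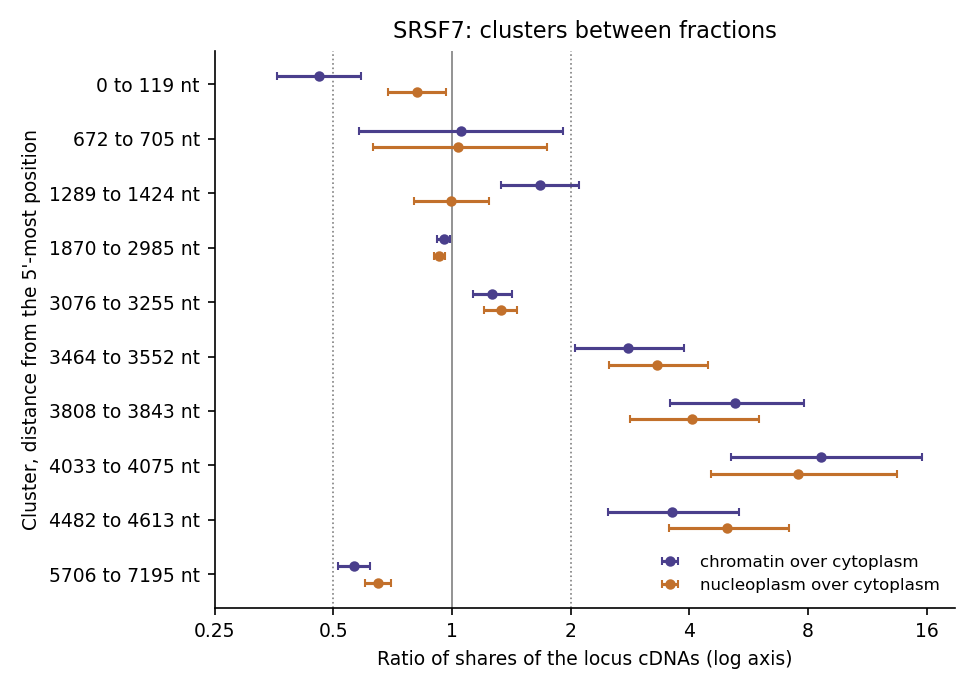
Ratio of each cluster's share of the Srsf7 locus cDNAs in SRSF7 chromatin (purple) and nucleoplasm (orange) to its share in SRSF7 cytoplasm, on a log axis, for the 10 clusters compared. Bars are exact 95% intervals for counting error and dotted lines mark 2-fold; the 4 clusters from 3464 to 4613 nt lie above 2, and the cluster from 5706 to 7195 nt lies at 0.565 and 0.650.

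Inside the leading cluster the profile was uneven at the scale of 100 nt. The stretch from 2670 to 2769 nt was the highest in all 3 SRSF7 lists, with 755, 1402 and 1102 cDNAs, or 10.5%, 9.75% and 13.3% of the locus. SRSF3 chromatin had 160 cDNAs there, also its highest stretch in the cluster, at 10.5%. Over the 11 full stretches of 100 nt, chromatin over cytoplasm in SRSF7 lay between 0.777 (0.664 to 0.909) at the 5′ edge and 1.39 (1.22 to 1.57) at 2470 to 2569 nt. None of these was beyond 2-fold.

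**Figure D4:**
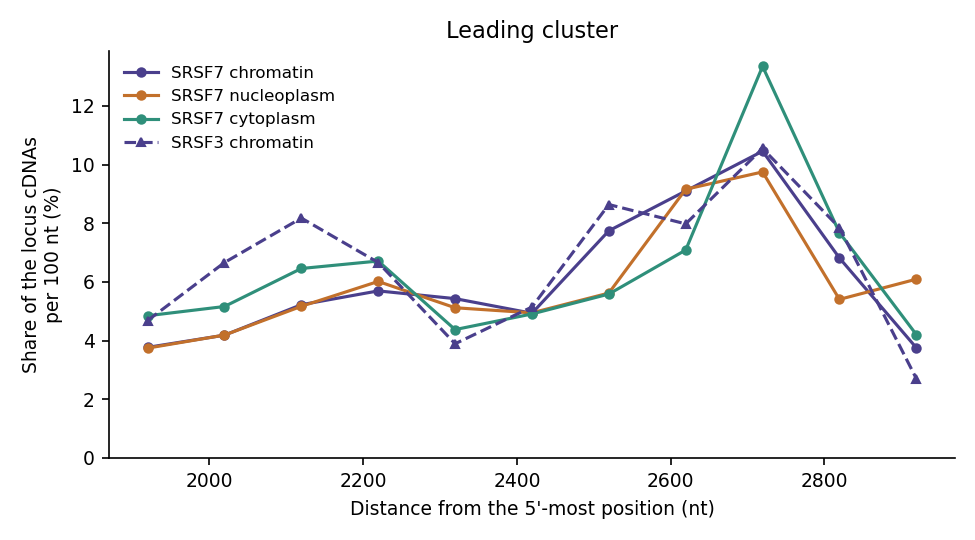
Share of the Srsf7 locus cDNAs per 100 nt across the leading cluster, in percent, for SRSF7 in 3 fractions and for SRSF3 in chromatin. Points are single pooled values; all 4 lines peak at 2670 to 2769 nt, at 13.3% in SRSF7 cytoplasm and between 9.75% and 10.5% in the others.

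The 3 tallest positions of each list were 8 distinct nucleotides, of which 6 lay in the leading cluster and the others in the second. Of these, 80604063 and 80604415 were named from lists of both proteins, and the other 6 from lists of 1 protein. Ties were broken by coordinate. Position 80603530, named from SRSF7 lists, tied at 4 cDNAs with 80604210, named 3rd in SRSF3 nucleoplasm. Position 80604063, at 2585 nt, had 40, 100 and 30 cDNAs in SRSF7 chromatin, nucleoplasm and cytoplasm, and 35, 3 and 0 in the SRSF3 lists. It was the tallest of both chromatin lists. Position 80604415, at 2233 nt, had 25, 97 and 60 cDNAs in SRSF7 and 29, 5 and 6 in SRSF3, and it was among the 3 tallest in 5 of the 6 lists. Its 6 cDNAs were 46.2% of the 13 that SRSF3 cytoplasm had on the whole locus. Position 80603530, at 3118 nt in the second cluster, was the tallest of SRSF7 nucleoplasm with 151 cDNAs, beside 29 in chromatin and 59 in cytoplasm. SRSF3 had 19, 4 and 0 cDNAs there.

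The tall positions of the leading cluster did not share 1 order of fractions. Position 80603887, at 2761 nt, was the tallest in SRSF7 cytoplasm, with 36, 66 and 81 cDNAs in chromatin, nucleoplasm and cytoplasm. Relative to the locus totals its nucleoplasmic share was 0.468 of the cytoplasmic share (0.333 to 0.655). At 80604063 that ratio was 1.91 (1.26 to 2.98). Both positions were chosen for their height, so these ratios describe them only. As shares of the locus, position 80604063 held 0.554% of the locus cDNAs of SRSF7 chromatin and 2.31% of those of SRSF3 chromatin, and position 80603511 held 0.305% and 1.98%. Both are among the tallest of SRSF3 chromatin, whose list has fewer positions on this RNA, so these shares are a description.

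Positions were shared closely between lists. Of SRSF7 chromatin positions 96.0% lay within 5 nt of an SRSF7 nucleoplasm position, and 90.7% of nucleoplasm positions lay near a chromatin one. For chromatin and cytoplasm the shares were 89.7% and 89.9%, and for nucleoplasm and cytoplasm 90.4% and 96.9%. Of SRSF7 chromatin positions 58.5% lay near an SRSF3 chromatin position, and 584 of the 588 SRSF3 chromatin positions, or 99.3%, near an SRSF7 one. All 109 nucleoplasmic and all 8 cytoplasmic SRSF3 positions lay near an SRSF7 position of the same fraction. Where most nucleotides of a cluster are listed, as for SRSF7 here, a partner within 5 nt is found for almost any position. At the same nucleotide, 30.3% of SRSF7 chromatin positions and 88.3% of SRSF3 chromatin positions were shared.

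In bins of 100 nt over the dense stretch, the chromatin profiles of SRSF7 and SRSF3 correlated at 0.95 (Pearson) and 0.79 (Spearman) over 75 bins. The SRSF7 fractions gave Pearson values between 0.95 and 0.97 among themselves. These values describe bins of 1 RNA, which share its mappability and base composition, and rest largely on the leading cluster.

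Part of the SRSF7 chromatin profile had no counterpart in the SRSF3 chromatin list. In the 3 clusters from 0 to 1424 nt SRSF7 chromatin had 96, 24 and 194 cDNAs, while SRSF3 chromatin had no listed position there. In SRSF7 these clusters made up 4.35%, 4.28% and 4.81% of the locus in chromatin, nucleoplasm and cytoplasm. The stretch from 3406 to 5139 nt also took more of the SRSF7 chromatin cDNAs than of the SRSF3 chromatin ones, at 10.1% and 4.55%, a ratio of 2.22 (1.73 to 2.88). Of 6 clusters compared between the chromatin lists none was called, where 10.6% of 658 clusters of other loci were called higher in SRSF7 and 1.82% lower. The minimum of 10 cDNAs in each list leaves out every cluster not listed in SRSF3 chromatin. Among those left out are the 3 clusters from 0 to 1424 nt, and 4482 to 4613 nt with 120 SRSF7 chromatin cDNAs. The absence of calls therefore covers only clusters listed for both proteins. The SRSF3 chromatin list holds fewer cDNAs on this RNA (7222 for SRSF7, 1517 for SRSF3), and the part of its depth and of the listing threshold in this difference was not tested.

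The excess of SRSF7 over SRSF3 was not confined to the Srsf7 transcript. Within 300 kb of it on either strand, in whole or in part, were 23 other loci. A span of 151 kb, from 80543939 to 80694924 and delimited after the values were seen, held 8 of them, 2 on the minus and 6 on the plus strand. Its ends are plus-strand loci that were picked because they were listed for SRSF7 and not for SRSF3, so its excess is a description. Without Srsf7, these 8 had 1576 chromatin, 2926 nucleoplasm and 800 cytoplasm cDNAs in the SRSF7 lists, and 81, 8 and 2 in the SRSF3 lists. The log2 ratio of SRSF7 to SRSF3 was 5.08, 6.62 and 8.80 for the Srsf7 locus in chromatin, nucleoplasm and cytoplasm. For the sum of the 8 neighbours it was 7.11 (6.79 to 7.45) for chromatin, 8.71 (7.73 to 9.93) for nucleoplasm and 8.13 (6.27 to 11.2) for cytoplasm. The summed excess was larger than that of Srsf7 in chromatin and nucleoplasm, and in cytoplasm the intervals overlapped. The locus at 80637679 to 80689490 held 1407, 2600 and 600 of the summed SRSF7 cDNAs and 78, 5 and 0 of the SRSF3 ones. The sums therefore mainly describe that locus and not each of the 8 neighbours. Both SRSF3 cytoplasm cDNAs came from a locus not listed for SRSF7, at 80608931 to 80608946.

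The largest neighbour lay upstream on the same strand, at 80637679 to 80689490. It held 1407 chromatin, 2600 nucleoplasm and 600 cytoplasm cDNAs in the SRSF7 lists, and 78, 5 and 0 in the SRSF3 lists. Its fractions followed those of Srsf7 only in part. Nucleoplasm led in both, but chromatin over cytoplasm was 1.29-fold for Srsf7, against 3.47-fold (3.15 to 3.82) for this neighbour. On the plus strand, the loci at 80621292 to 80637074 and at 80689635 to 80694924 held 280 and 330 SRSF7 cDNAs over the 3 fractions and were not listed for SRSF3.

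Outside this span, within the same 300 kb, 15 loci held 3 chromatin, 63 nucleoplasm and 106 cytoplasm cDNAs of SRSF7, and 405, 5 and 20 of SRSF3. Chromatin was there lower in SRSF7, with a log2 ratio of -4.25 (-6.53 to -2.69). Nucleoplasm and cytoplasm were higher in SRSF7, at 3.85 (2.56 to 5.53) and 1.89 (1.19 to 2.66). A single distant locus, at 80244181 to 80295388 on the minus strand, held 39 of these 63 and 86 of these 106 SRSF7 cDNAs and none of the SRSF3 ones in those fractions. It also held 170 of the 405 SRSF3 chromatin cDNAs. This locus reaches beyond the 300 kb and was counted whole. As the ends of the span were picked by the values, the inside and the outside are not compared further. The high SRSF7 counts cover several loci on both strands, with Srsf7 among them. The number of copies of this region in the SRSF7-GFP cells was not measured here, and its part in these ratios was not tested.

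**Figure D5:**
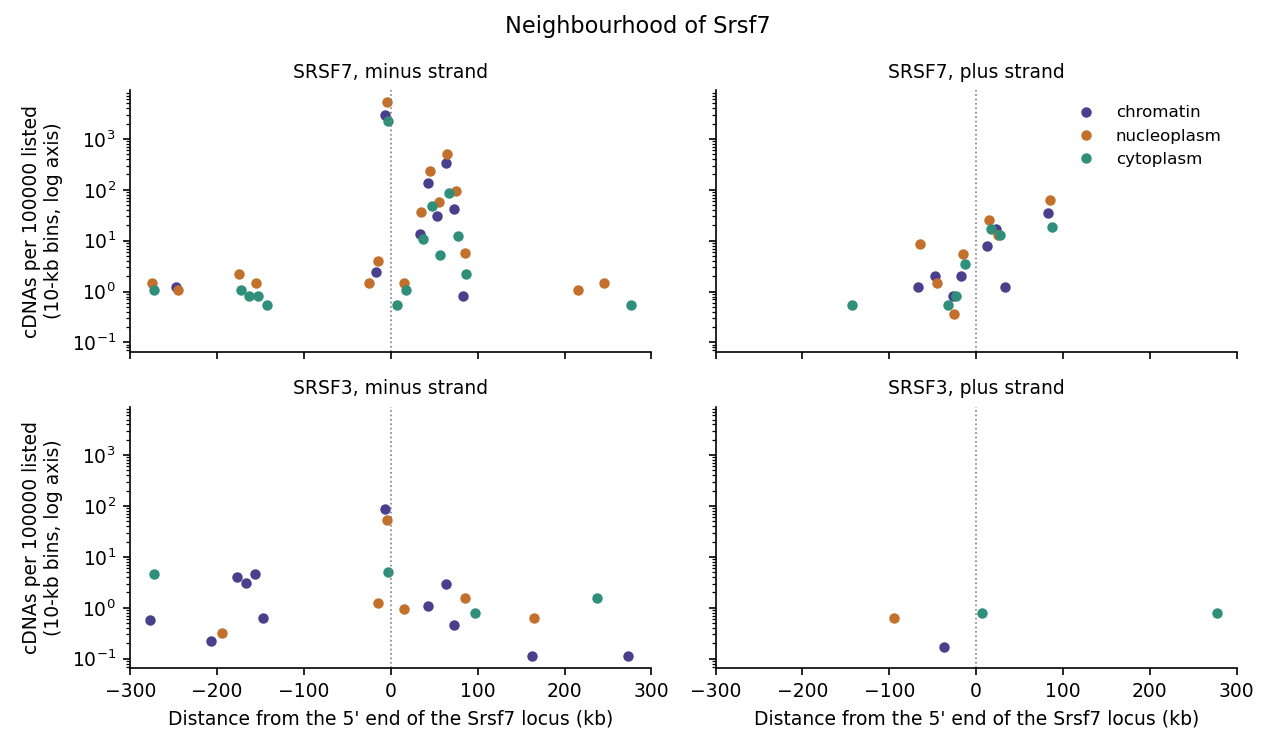
cDNAs relative to each list's total, in bins of 10 kb on the minus (left) and plus strand (right) around the Srsf7 locus, for SRSF7 (top) and SRSF3 (bottom), on a log axis; bins with no listed cDNA are not drawn. Negative distances lie 3′ of Srsf7. SRSF7 points cluster from about 60 kb on that side on the plus strand, and from about 30 kb on the minus strand. They reach about 90 kb on the other side on both strands, and fewer SRSF3 points fall there.

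In RefSeq the protein-coding genes from Srsf7 onwards are Srsf7 (minus strand), Gemin6 (plus), Ttc39d (plus), Dhx57 (minus), Morn2 (plus) and Arhgef33 (plus). Gemin6 encodes a part of the SMN complex, which assembles spliceosomal ribonucleoproteins, and Dhx57 a putative RNA helicase. The order is that of another build, so the neighbouring loci were not assigned to these genes. The nearest plus-strand locus upstream of Srsf7 began 2283 nt from its 5′-most position. It was listed in SRSF3 cytoplasm alone, with 2 cDNAs. Srsf7 and Gemin6 start back to back. The bases between them are shown as background to this gene order, and no listed position was placed on them. They come from RefSeq, GRCm38.p6, chr17:80207370-80207503, and are written 5′ to 3′ on the Srsf7 strand, all in lower case because no part is marked.
Srsf7-Gemin6 intergenic: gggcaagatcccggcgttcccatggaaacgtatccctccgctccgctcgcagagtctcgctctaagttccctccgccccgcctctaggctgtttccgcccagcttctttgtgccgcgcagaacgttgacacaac

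The loci whose shares varied most like those of Srsf7 over the 6 lists were sought among the 589 other loci with at least 10 cDNAs in every list. The closest lay on chromosome 7, minus strand, at 27450435 to 27495247, and its log2 shares correlated at 0.95 (Pearson). It was followed at 0.93 by chromosome 3, minus strand, 108357276 to 108372590, and at 0.90 by chromosome 11, plus strand, 87861203 to 87867168. The next were chromosome 19, minus strand, 5794731 to 5803434 and chromosome 4, minus strand, 116272888 to 116324211, both at 0.88. The median over all 589 was 0.05. The closest locus held 0.0302%, 0.0785% and 0.0248% of the SRSF7 lists and 0.0127%, 0.0111% and 0.00389% of the SRSF3 lists. Its SRSF7 nucleoplasmic share was likewise the highest of its 6 values, at far lower levels than at Srsf7. The locus was picked by these same values, so this is a description. A correlation does not measure the size of the difference between the proteins, which was smaller here than at Srsf7.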

How the data were processed

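Fractionation iCLIP libraries of 21 P19 samples were pooled by the authors into 6 lists, as the labels' descriptions and the file headers name them. Each deposited value is a score of 1 nucleotide: a whole number of cDNAs, whose sign was read here as the strand. Per the file headers, listing used 100 permutations, a neighbourhood of 15 nt and a false discovery rate under 0.05. The build is mm9, per the submitters' processing notes. The aligner is not given in the sources used here. All headers describe regions as treated separately, but the SRSF7 track names also carry a setting for regions taken as 1, so the listing may differ between proteins.

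Loci joined positions of all lists at gaps of up to 10000 nt, and clusters at 30 nt, per strand. A comparison needed at least 50 cDNAs in both lists together and 10 in each; for clusters, their locus needed at least 100 in each list. No p-value is given, because each group is 1 pooled value. Clusters named had at least 5% of the locus in a list with at least 100 cDNAs there, and positions named were the 3 tallest of each list above 1 cDNA; other clusters named were chosen after their values were seen. The 5 loci with the most similar shares were named. The members and the rules were chosen with earlier results of these data known. The calls on whole loci, between the proteins and between the SRSF7 fractions, were tested on simulated data with counting error only. Those on clusters and between the SRSF3 fractions were not. Tools were Python 3.11.15 with scipy 1.17.1, pandas 2.3.3, numpy 2.4.6 and, for figures, matplotlib 3.10.9.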

Additional observations from a re-analysis of the deposited data

Results flagged for a closer look

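Chromatin against nucleoplasm ran in opposite directions for the proteins at the Srsf7 locus. The log2 ratio of the shares was -0.85 in SRSF7 and 0.69 in SRSF3, each from 1 pooled list per fraction and within 2-fold. The median locus was at -0.73 in SRSF7 and -0.37 in SRSF3. The difference between the proteins was not tested, and both Srsf7 ratios change sign when listed positions are counted in place of cDNAs.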

How the results depend on the processing

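No paired analysis was possible because the replicates of each group were pooled in the deposited lists, and for the same reason none could be left out. SRSF7 over SRSF3 stayed beyond 2-fold in all 18 alternatives, between log2 4.05 and 10.1. Between fractions, 30 of 36 alternatives kept direction and call. With positions of at least 3 cDNAs, chromatin over nucleoplasm passed 2-fold, at -1.47 in SRSF7 and 2.14 in SRSF3. With positions counted it reversed, to 0.44 and -0.56, and nucleoplasm over cytoplasm in SRSF7 fell to 0.38. That last ratio was 0.87 without mitochondrial RNA and the 10 highest other loci. The cause was not tested. The leading cluster held 72.2%, 68.6% and 76.2% of SRSF7 chromatin, nucleoplasm and cytoplasm, and 100% of the 6 cDNAs left in SRSF3 cytoplasm, with positions of at least 3 cDNAs. With positions counted it held 52.4%, 46.7% and 51.4% of the SRSF7 lists. Other cluster gaps and leaving out the tallest position kept its share within the counting interval in every list. Clusters called higher in chromatin than in cytoplasm numbered 2 when joined at 10 nt, and with positions counted 0 were called against cytoplasm from chromatin and 0 from nucleoplasm (alternatives chosen after seeing the data).

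Positions shared at the same nucleotide were 85.4% of SRSF7 chromatin near nucleoplasm and 67.7% the other way, 73.8% of chromatin near cytoplasm and 69.7% the other way, 69.1% of nucleoplasm near cytoplasm and 82.3% the other way, and 30.3% of SRSF7 chromatin near SRSF3 chromatin and 88.3% the other way. Within 20 nt the values in the same order were 98.0%, 94.4%, 92.3%, 94.1%, 93.6%, 99.8%, 70.6% and 100%. With positions of at least 3 cDNAs, the first 5 were 97.9%, 92.2%, 91.9%, 93.0% and 88.2%. After thinning to equal totals, 41.0% of SRSF7 chromatin positions lay near an SRSF3 chromatin one. The SRSF3 values of nucleoplasm and cytoplasm rest on 168 and 13 cDNAs.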

Other observations

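Beyond the last large cluster of the Srsf7 locus, 5 small clusters lay between 7434 and 20234 nt. SRSF7 had 27 cDNAs in them in chromatin and 15 in nucleoplasm, and none was listed in cytoplasm. The nearest, at 7434 to 7460 nt, held 21 cDNAs and was listed in SRSF7 chromatin alone. At 19528 to 19553 nt SRSF7 nucleoplasm had 11 cDNAs and SRSF3 nucleoplasm 4. All 5 clusters lie farther from the 5′-most position than the 7290 nt of the Srsf7 gene in RefSeq, on another build. Whether they belong to the Srsf7 transcript was not tested.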
